A study of Mus musculus with 5 samples.

Results

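The let-7 family was followed in mouse kidney through 48 h after ischemia reperfusion injury (IRI). Its members were taken by name as the 9 mature miRNAs from the 5p arm that carry the let-7 seed, namely mmu-let-7a-5p, mmu-let-7b-5p, mmu-let-7c-5p, mmu-let-7d-5p, mmu-let-7e-5p, mmu-let-7f-5p, mmu-let-7g-5p, mmu-let-7i-5p and mmu-miR-98-5p, of 1247 miRNAs on the array. No measured value entered the rule that chose them, though earlier results of these data were known. Male C57B/6 mice had 30 min of warm bilateral renal ischemia and were killed 6, 12, 24 or 48 h later, and sham mice had the same operation without the clamp. The time at which sham kidneys were taken is not given in the sources used here. Whole kidney RNA was labelled with Cy3 and hybridized to 1-colour Agilent miRNA arrays, with 1 array per group and 5 in all. The labels name the Low Input Quick Amp kit for labelling, a kit made for messenger RNA, and its bearing on the signals was not tested. The labels give 8 mice per time point and the sources used here do not state whether their RNA was pooled.

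miRNAs are short RNAs that guide Argonaute proteins to messenger RNAs, mainly through the seed near the 5′ end, and lower the output of those messages. The let-7 family is abundant in differentiated tissues, where it restrains growth genes such as Hmga2, Ras and Myc. Its precursors are held back by the RNA-binding protein Lin28 in embryonic and stem cells. Each hairpin precursor gives a 5p arm, the usual guide strand, and a 3p arm that is mostly discarded.

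The mature sequences, from RefSeq with the GRCm38 build, show how alike the members are. All 9 matched by name, and each has 22 bases. Capitals mark the seed, bases 2 to 8, which was the same in all 9.
mmu-let-7a-5p: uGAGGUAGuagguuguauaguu
mmu-let-7b-5p: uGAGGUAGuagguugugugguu
mmu-let-7c-5p: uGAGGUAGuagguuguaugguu
mmu-let-7d-5p: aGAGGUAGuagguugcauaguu
mmu-let-7e-5p: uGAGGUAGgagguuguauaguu
mmu-let-7f-5p: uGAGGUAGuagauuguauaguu
mmu-let-7g-5p: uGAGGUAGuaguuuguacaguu
mmu-let-7i-5p: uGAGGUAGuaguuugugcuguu
mmu-miR-98-5p: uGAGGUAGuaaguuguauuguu

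Counted from 1 at the 5′ end, let-7c-5p differs from let-7a-5p by A19G, let-7e-5p by U9G and let-7f-5p by G12A. These 3 members are each 1 base from let-7a-5p. let-7b-5p carries A17G and A19G, let-7d-5p U1A and U16C, let-7g-5p G12U and U18C, and miR-98-5p G11A and A19U. let-7i-5p is the farthest, with G12U, A17G, U18C and A19U. GC content ran from 31.8% in let-7f-5p and miR-98-5p to 45.5% in let-7b-5p.

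The table of mature sequences placed the members at 11 loci on 7 chromosomes of GRCm38. Mirlet7a-1 (chr13:48538239-48538260), Mirlet7f-1 (chr13:48537889-48537910) and Mirlet7d (chr13:48536078-48536099) lie on the minus strand within 2183 bases. Mirlet7c-2 (chr15:85706616-85706637) and Mirlet7b (chr15:85707325-85707346) lie on the plus strand within 731 bases, and Mirlet7f-2 (chrX:151912353-151912374) and Mir98 (chrX:151913229-151913250), also on the plus strand, within 898 bases. Single loci were Mirlet7c-1 on chromosome 16, Mirlet7e on 17, Mirlet7g on 9 and Mirlet7i on 10. Mature let-7c-5p and let-7f-5p each come from more than 1 of these loci, which the array cannot tell apart. The array also lists 3p arms of 2 let-7a precursors, let-7a-1 and let-7a-2, so let-7a-5p has a further source beside the locus given.

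Each member was read by 2 probes of 20 spots each, and both were detected on all 5 arrays, with no saturated spot. A probe was detected when its signal exceeded 3 times its error, and the signal of a miRNA was the sum of its own detected probes, in arbitrary units. Errors were taken from the scanner output. They include a 10% proportional term and do not cover variation between mice or between arrays. No test between groups was possible, and in whole kidney fewer cells of a type and less miRNA per cell cannot be told apart. The sham and 6 h arrays shared slide 1 and a scan, the 12 and 24 h arrays shared slide 2 and a scan, and the 48 h array was on slide 2 in a scan of its own. For sham against 12, 24 or 48 h, slide and group therefore cannot be told apart. The software multiplied signals by an effective feature size, which was 0.774 at 12 h, 0.776 at 24 h and 0.6 for the remaining groups. The 4 spike-in controls, RNAs that do not come from kidney, stood at 1.05, 2.08, 2.13 and 2.06 times sham at 6, 12, 24 and 48 h, as a geometric mean. They differed among themselves, with log2 ratios over sham from 0.61 to 1.58 at 24 h.

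Unscaled, all 9 members had their highest signal at 24 h, and 6 of 9 had their lowest at 48 h. The arrays as a whole shifted too. Among 182 miRNAs with a detection on every array, 99.5% stood above sham at 24 h and 39.0% at 48 h. Of the 182, 64.3% were higher at 24 h than at 12 h by more than the scanner error. How many of them had their own highest or lowest signal at these times was not counted. The summed family signal was 10278 ± 379 (scanner error), 9732 ± 368, 10732 ± 392, 16379 ± 570 and 8046 ± 282 from sham through 6, 12 and 24 h to 48 h. The log2 ratio over sham was −0.08 ± 0.08, 0.06 ± 0.07, 0.67 ± 0.07 and −0.35 ± 0.07 at 6, 12, 24 and 48 h. Thus the sum differed from sham by about its error at 6 and 12 h, was above it at 24 h and below it at 48 h. The sum is weighted toward the members with the brightest probes, and without let-7b-5p the 24 h ratio was 0.78.

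The direction at 24 h depended on the scale. When every array was given the same effective feature size, the sum stood 0.30 above sham at 24 h and at −0.31 at 12 h, on the log2 scale. After division by the spike-in controls it was −0.15, −0.99, −0.42 and −1.39 at 6, 12, 24 and 48 h, so that the sum was below sham at every time point. Quantile normalization gave −0.74, −0.99, −0.59 and −0.63. The 24 h ratios of the single members, which follow unscaled, were likewise under sham in 9 of 9 members after spike-in scaling, where the share was 53.3% among the 182 miRNAs with a detection on every array, and after quantile normalization, where it was 63.2%. Division of a whole array by 1 factor leaves the position of the family among the other miRNAs as it was.

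**Figure D1:**
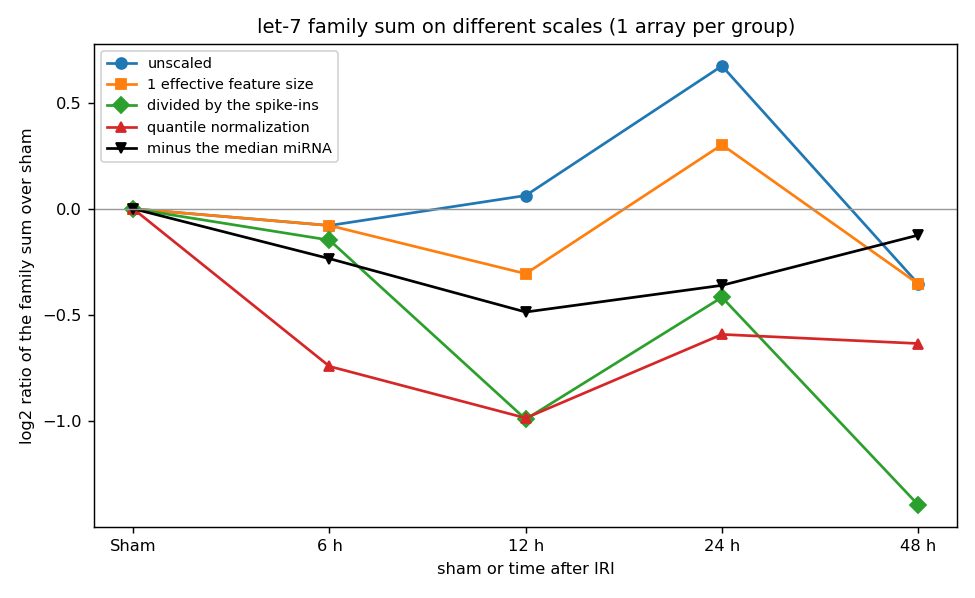
Log2 ratio of the summed let-7 signal over sham (y axis) for the sham array and the 4 times after IRI (x axis), with 1 array per group and 1 line per scale. The unscaled 24 h value of 0.67 turned to −0.42 after division by the spike-ins, while the line relative to the median miRNA was below 0 at all 4 time points.

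Relative to the median of the 182 miRNAs detected on all arrays, the family sum was below 0 at every time point. That median log2 ratio was 0.16, 0.55, 1.03 and −0.23, and the family sum stood −0.23, −0.49, −0.36 and −0.12 from it at 6, 12, 24 and 48 h. In the same order, 29, 33, 41 and 71 of the 182 lay lower than the family sum. At 48 h the sum was within the interquartile range of the 182, −0.31 to 0.48. Of the 9 members, 8, 9, 9 and 7 lay below the median, and 5, 9, 7 and 2 did so by more than their own scanner error, against 18.7%, 35.7%, 36.3% and 33.5% of the 182 miRNAs. The count of 9 at 24 h was 7 with normexp background correction or in the authors' processed table, and 6 with quantile normalization. The median member stood −0.21, −0.52, −0.26 and −0.12 from the median miRNA, against 0 for all 182 by construction.

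Counts past a 1.5 fold line were low on this scale and depended on the processing, with 3, 4, 1 and 3 members lower by as much at 6, 12, 24 and 48 h under quantile normalization. As summed, at 6 h 0 of 9 were lower than the median by 1.5 fold or more, against 6.04% of the 182 miRNAs, and 0 were higher by as much, against 23.1%. At 12 h 1 member, let-7e-5p, was lower (background 11.5%) and 0 were higher (28.0%). At 24 h 1 member, let-7b-5p, was lower (9.34%) and 0 were higher (23.6%). At 48 h 0 were lower (12.1%) and 0 were higher (21.4%).

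With a line at 0.32 on the log2 scale, 3 members were lower than the median at 6 h (12.6% of all), 8 at 12 h (28.6%) and 3 at 24 h (24.7%), while at 48 h there were 0 (24.7%). The 12 h array was thus the one on which most members lay past this line together. The interquartile range of the log2 ratio over the members, which share most of their sequence, was 0.33, 0.05, 0.11 and 0.09 at 6, 12, 24 and 48 h, against 0.50, 1.15, 0.88 and 0.78 for the 182. Without any scaling, 3, 7, 9 and 1 of 9 members were above sham, where 74.7%, 86.3%, 99.5% and 39.0% of the 182 were.

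**Figure D2:**
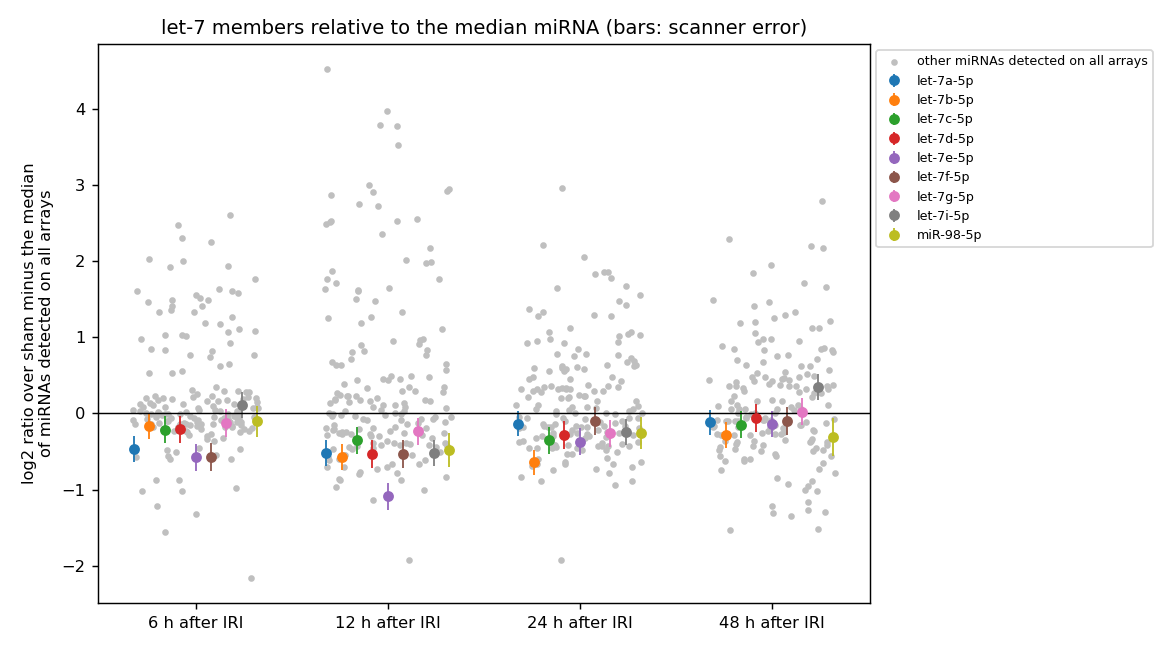
Log2 ratio over sham minus the median of the 182 miRNAs detected on all arrays (y axis) at each time after IRI (x axis); coloured points are the 9 let-7 members with their scanner error, grey points the other miRNAs, spread sideways for sight only. All 9 members lay below 0 at 12 and 24 h on this scale (8 and 6 after quantile normalization), let-7e-5p lowest at 12 h with −1.09, and let-7i-5p stood at 0.35 at 48 h.

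The members were then described one by one, beginning with let-7a-5p and let-7f-5p. Signals and likeness between arrays are unscaled. With 1 feature size, let-7c-5p and let-7g-5p had 12 h log2 ratios over sham of −0.17 and −0.053, within their error. The other members were below sham at 12 h by more than their error, from −0.30 for miR-98-5p to −0.91 for let-7e-5p. How many of the 182 miRNAs were so on this scale was not counted. let-7a-5p, which shares the chromosome 13 cluster with let-7d and let-7f, had signals of 1311, 1061, 1342, 2447 and 1032 on the sham, 6, 12, 24 and 48 h arrays. Sham and 12 h did not differ beyond their error, nor did 6 and 48 h, and the 24 h array stood apart. let-7f-5p had 860, 643, 873, 1641 and 683 in the same order and the same grouping of arrays. The log2 ratio at 6 h was −0.31 ± 0.17 for let-7a-5p, −0.42 ± 0.18 for let-7f-5p and also −0.42 ± 0.18 for let-7e-5p. At 24 h it was 0.90 ± 0.17 for let-7a-5p and 0.93 ± 0.18 for let-7f-5p.

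Unscaled, let-7e-5p, encoded on chromosome 17 next to miR-99b and miR-125a, differed most in shape from the rest. Its signals were 355, 266, 244, 563 and 275 from sham through 6, 12 and 24 h to 48 h. Unscaled, the arrays at 6, 12 and 48 h were alike within error and all lay below sham. With 1 feature size let-7e-5p had log2 ratios of −0.42, −0.91 and −0.37 at 6, 12 and 48 h. At 12 h its unscaled log2 ratio was −0.54 ± 0.18, while the other members ranged from −0.02 to 0.32. The highest member at 12 h, let-7g-5p, stood 0.86 ± 0.25 above let-7e-5p.

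let-7b-5p, from the chromosome 15 cluster, showed the smallest excess at 24 h. Its signals were 3162, 3155, 3112, 4149 and 2218 on the sham, 6, 12, 24 and 48 h arrays. Sham, 6 h and 12 h did not differ beyond error. The log2 ratio at 24 h was 0.39 ± 0.17, which is −0.64 relative to the median miRNA, and the gap to let-7f-5p on that array was 0.54 ± 0.25. let-7c-5p, its neighbour in the cluster, had 2368, 2278, 2713, 3793 and 1825, with a log2 ratio of 0.68 ± 0.18 at 24 h.

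let-7d-5p and let-7g-5p also stood apart at 24 h. let-7d-5p had 785, 756, 795, 1321 and 644 from sham through 6, 12 and 24 h to 48 h, with the first 3 alike within error. let-7g-5p had 832, 849, 1035, 1422 and 722, and its unscaled 12 h signal exceeded that of 6 h by more than the error, while with 1 feature size its 12 h log2 ratio over sham was −0.053 against 0.029 at 6 h. Their log2 ratios at 24 h were 0.75 ± 0.18 and 0.77 ± 0.18.

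let-7i-5p, from a locus of its own on chromosome 10, was the member that was not below sham on any array unscaled. After division by the spike-in controls its log2 ratio was −1.02, −0.30 and −0.92 at 12, 24 and 48 h. Its signals were 578, 695, 590, 996 and 628 on the sham, 6, 12, 24 and 48 h arrays, and, ordered by signal, only the 24 h array stood beyond the error from its neighbour. The log2 ratio at 6 h was 0.27 ± 0.17, and the gap to let-7f-5p on that array was 0.69 ± 0.25, on the same slide as sham. At 48 h it was 0.12 ± 0.17, against −0.54 ± 0.25 for miR-98-5p. miR-98-5p had the dimmest probes, with signals of 27.4, 28.4, 28.8, 46.9 and 18.8 from sham to 48 h, of which the first 3 were alike within error.

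**Figure D3:**
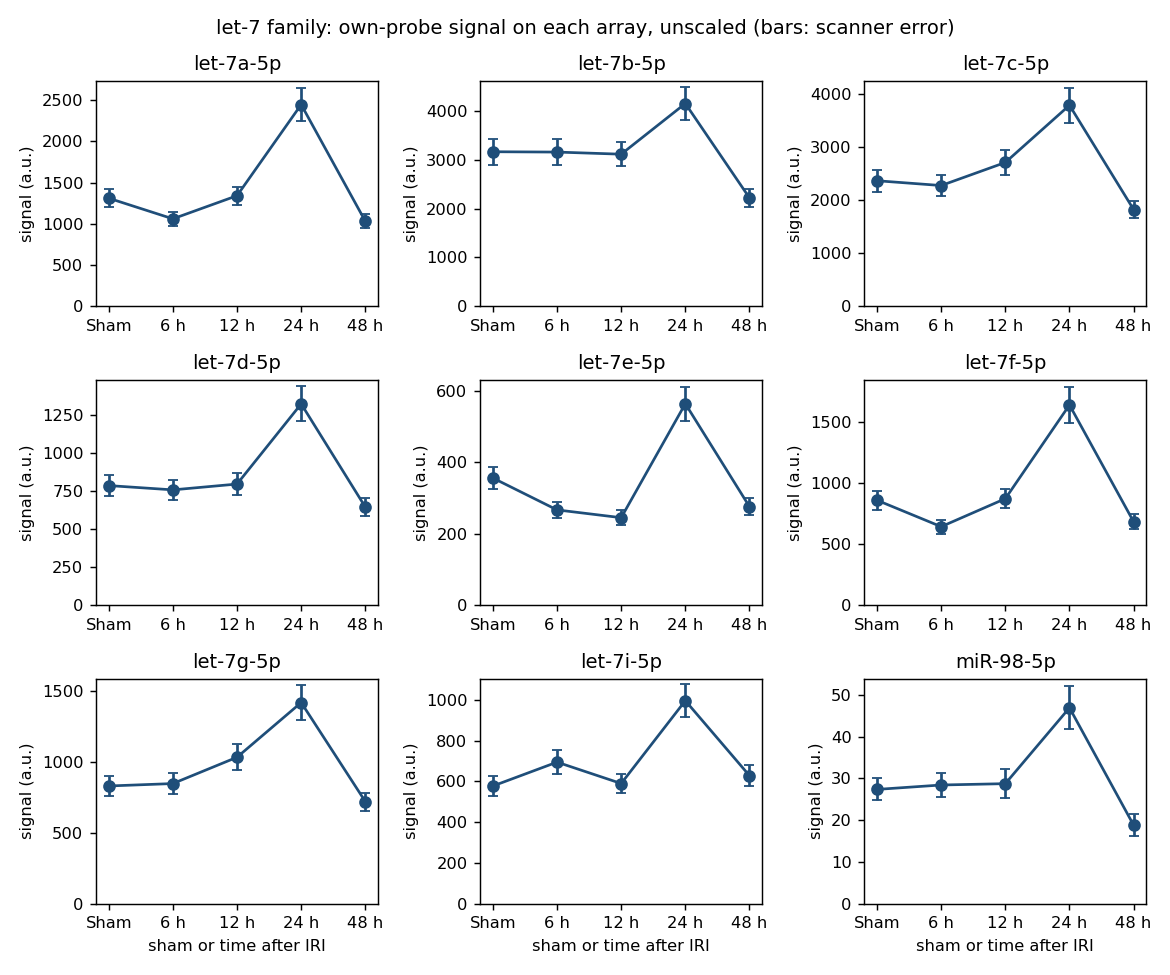
Unscaled signal in arbitrary units (y axis, from 0) of each let-7 member for the sham array and the 4 times after IRI (x axis), 1 array per point, with bars for the scanner error. Each panel has its own scale, the 24 h point was the highest in all 9 panels, and let-7e-5p was lowest at 12 h with 244. Unscaled, 99.5% of the 182 miRNAs stood above sham at 24 h.

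The 12 and 24 h arrays were on 1 slide and in 1 scan, with nearly equal feature sizes and spike-in signals. On this pair the family sum was higher at 24 h by 0.61 ± 0.07 on the log2 scale, against 0.46 for the median miRNA. let-7e-5p had the largest ratio, 1.20 ± 0.17, followed by let-7f-5p with 0.91 ± 0.18 and let-7a-5p with 0.87 ± 0.17. let-7b-5p, let-7g-5p and let-7c-5p had 0.41 ± 0.16, 0.46 ± 0.18 and 0.48 ± 0.18, close to the median miRNA. All 9 members were higher at 24 h than at 12 h beyond their error, as were 64.3% of the 182 miRNAs, in a comparison that slide and scan did not separate.

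The probes set a limit on how far members can be told apart. All 18 probes, 18 to 22 bases long, matched their own miRNA without a mismatch, but 12 probes, those of let-7a to let-7f, lay 1 mismatch from another member. The brighter probes of let-7a-5p and let-7e-5p are shown because these members differed at 12 h, and the capital marks the probe base that faces position 9 of the miRNA, the base at which they differ.
let-7a-5p probe: aactatacaacctActacct
let-7e-5p probe: aactatacaacctCctacc
Signal of one member on the probe of another was not measured, and its part in these values was not tested. The probes of let-7g-5p, let-7i-5p and miR-98-5p lay 2 mismatches from the nearest member.

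The probe pairs of a member gave similar ratios over sham. In 36 pairs, 9 members at 4 time points, the log2 ratios differed by a median of 0.10, lay within 0.2 in 26 pairs and had the same sign in 32. At 6 h, on the slide of sham, the dimmer probe gave the higher ratio in 1 of 9 members, with a median difference of −0.01. On slide 2 it did so in 9 of 9 at 12 h, 8 of 9 at 24 h and 8 of 9 at 48 h, with median differences of 0.16, 0.13 and 0.06. Probe pairs of miRNAs outside the family were not compared, so whether this is particular to let-7 was not tested. The widest gap was that of let-7i-5p, whose brighter probe gave −0.05, 0.71 and 0.05 and whose dimmer probe gave 0.35, 1.12 and 0.44 at 12, 24 and 48 h.

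**Figure D4:**
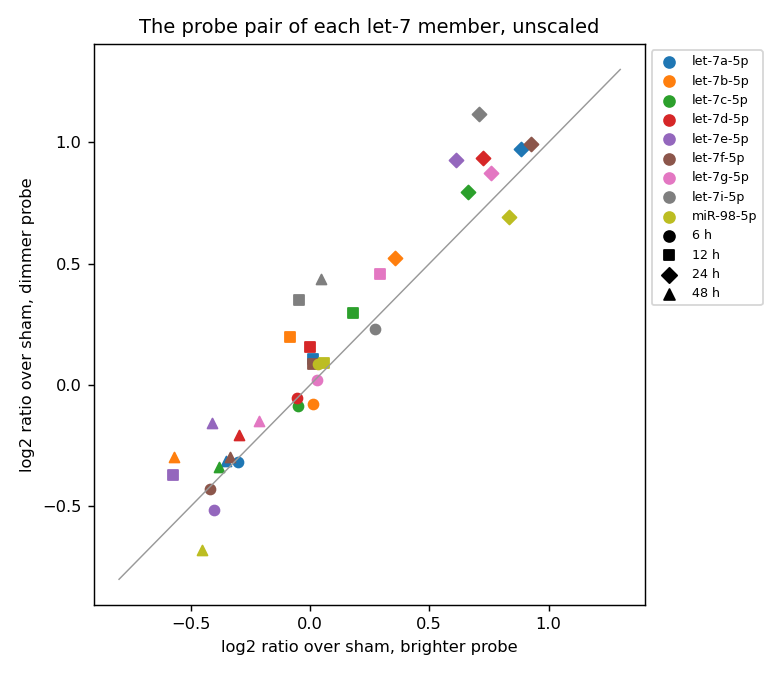
Log2 ratio over sham from the brighter probe (x axis) and the dimmer probe (y axis) of each let-7 member, unscaled, with colour for the member and marker shape for the time after IRI; the line marks equal values. Points at 6 h lay near the line, and most points at 12, 24 and 48 h lay above it, let-7i-5p farthest.

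The family made up a smaller share of the array signal after IRI. Its share of the summed own-probe signal of all miRNAs was 15.8% for sham, and 12.6%, 8.62%, 11.9% and 10.69% at the successive times after IRI. Without miR-3963 and miR-6366, the miRNAs with the highest signals in sham, the shares were 27.3%, 17.5%, 14.3%, 19.8% and 19.4%. In both forms sham was highest and 12 h lowest.

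The 3p arms of the same precursors were detected on the 12 and 24 h arrays only. None of 11 arms on the array was detected in sham, at 6 h or at 48 h, while 2 were detected at 12 h, and 5 of them were detected at 24 h. Of the 1028 miRNAs without a detected probe in sham, the detected share was 3.79%, 6.91%, 8.66% and 0.875% at 6, 12, 24 and 48 h. The arms seen on both arrays are shown with bases 2 to 8 in capitals, which differ from the let-7 seed.
mmu-let-7b-3p: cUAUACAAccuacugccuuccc
mmu-let-7d-3p: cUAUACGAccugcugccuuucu

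let-7d-3p had signals of 11.9 at 12 h and 31.3 at 24 h, and let-7b-3p had 3.64 and 24.6. At 12 h not all of their probes were detected, and over all probes the sums were 13.9 and 12.0. The lowest detected signal of any miRNA in sham was 1.99. At 24 h let-7d-3p was 15.7-fold and let-7b-3p 12.4-fold that value, or 7.68-fold and 6.04-fold relative to the median miRNA. These ratios are not lower bounds, because the sham signal of the arms is known only within its error. Over all probes it was 0.38 ± 1.21 for let-7d-3p and −0.48 ± 1.20 for let-7b-3p. let-7e-3p, let-7a-2-3p and let-7g-3p were detected at 24 h only, with 9.87, 9.13 and 4.41. The 15.7-fold and 12.4-fold ratios were unscaled, and here too slide and group cannot be told apart.

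Summed over all probes, detected or not, the 11 arms ran from −2.77 to 0.51 in sham and from 0.47 to 31.3 at 24 h, and 11 of 11 were above sham at 24 h. Among 913 miRNAs detected on no array, 36.8% were above sham at 24 h, and their median sum was −2.15 in sham and −3.69 at 24 h. That set leaves out by its choice every miRNA detected at 24 h, whereas 5 of the 11 arms were detected there. The shares above sham therefore do not come from like sets. The other miRNAs with the let-7 seed, let-7k and miR-1961, were detected on none of the arrays.

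**Figure D5:**
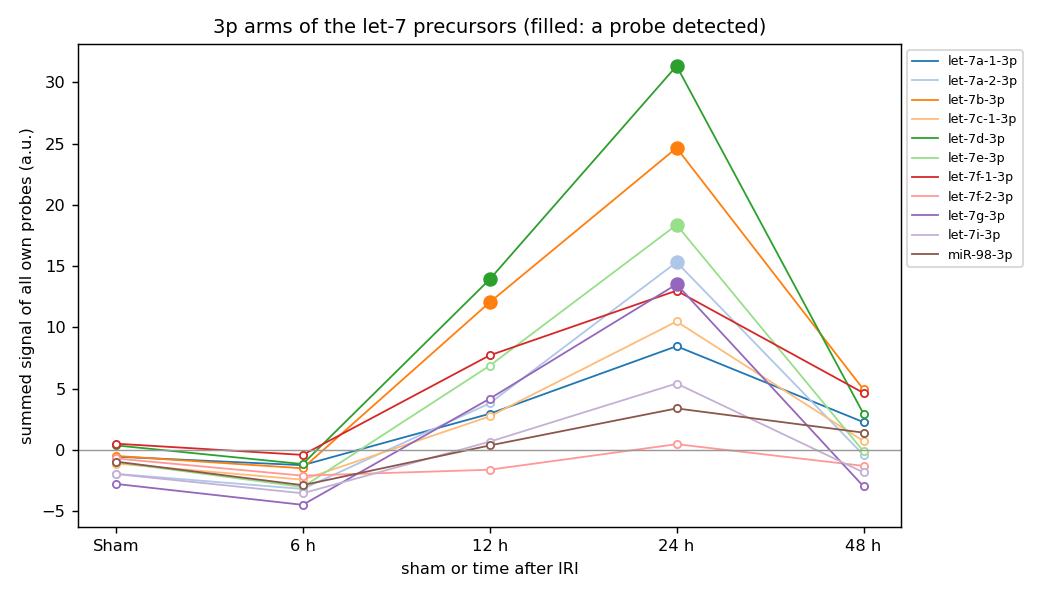
Summed signal of all own probes in arbitrary units (y axis) of the 11 let-7 3p arms for the sham array and the 4 times after IRI (x axis), 1 array per point; filled points have a detected probe. The sums were near 0 in sham and reached 31.3 for let-7d-3p at 24 h.

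Several let-7 genes lie beside genes of the miR-99/100 and miR-125 families, and miR-99b and miR-125a flank let-7e. Relative to the median miRNA at 12 h they stood at −0.23 and −0.07, where let-7e-5p was at −1.09. After quantile normalization let-7e-5p was at −0.65. The 12 h log2 ratio of let-7e-5p over sham was below that of miR-99b-5p by 0.86 ± 0.28 and below that of miR-125a-5p by 1.02 ± 0.25. miR-100-5p stood at −1.13 and miR-99a-5p at −0.70 on that array, and miR-125b-5p at −0.05. Of the 5 neighbours, 0, 2, 1 and 0 were lower than the median by 1.5 fold or more at 6, 12, 24 and 48 h, and 0 were higher by as much on any array.

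Families abundant in kidney were set beside let-7. The median of the 5 miR-30 family members relative to the median miRNA was 0.21, 0.17, −0.17 and −0.28 at 6, 12, 24 and 48 h. The 5 members of the miR-200 family, which keep epithelial cells in the epithelial state, had −0.0013, −0.27, −0.22 and −0.12. The non-members with the profile most like the family sum, by root mean square distance of log2 values relative to the median over the 5 arrays, were miR-497-5p (0.03), miR-200b-5p (0.06), miR-16-5p (0.08), miR-532-5p (0.08) and miR-429-3p (0.08). The median distance of 173 non-members was 0.36, and the members ranged from 0.05 for let-7d-5p to 0.24 for let-7e-5p.

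Sets of like base composition or brightness were compared in the same way. The 55 non-members in the GC range of the members had medians of −0.01, −0.09, −0.17 and −0.10 relative to all, and 20 non-members with sham signals between those of let-7e-5p and let-7b-5p had 0.02, 0.10, −0.17 and 0.08. GC was known for 149 of the 182 miRNAs.

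Markers of other cell types differed between arrays as well. Of the red blood cell list, miR-451a was detected on all arrays, with 159, 500, 234, 538 and 105 from sham through 6, 12 and 24 h to 48 h, miR-144-3p on none, and miR-486-5p was not on the array. Of 5 leukocyte miRNAs, 2 were detected on all arrays, and the sum of the list was 38.2, 66.4, 99.8, 58.2 and 61.2, while miR-142-5p and miR-150-5p were detected on none. The 5 kidney tubule miRNAs, which mark the labelled tissue and were all detected on every array, summed to 2617, 3028, 3469, 4157 and 1949. Of the endothelial list, miR-126-3p had 827, 881, 898, 1284 and 586, and miR-126-5p was detected in sham only, with 3.82. All these signals are unscaled. Relative to the median miRNA, miR-451a stood at 1.49, 0.0035, 0.72 and −0.37 at 6, 12, 24 and 48 h. In that order miR-223-3p had 1.01, 1.19, −0.36 and 0.98, miR-155-5p 0.15, −0.30, 0.07 and 0.95, and miR-126-3p −0.06, −0.43, −0.40 and −0.27. The kidney tubule list had medians of −0.09, −0.09, −0.26 and −0.19. Within it at 24 h, miR-204-5p, with a sham signal of 7.26, stood at 1.65 and the others from −0.67 to −0.22. The part of these shifts in the let-7 values was not tested.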

How the data were processed

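Agilent mouse miRNA arrays measured kidney RNA of 5 groups, sham and 4 times after IRI, with 1 array per group. The authors deposited the intensity output of Agilent Feature Extraction 10.7.1.1 (named in the submitters' processing notes), background-subtracted and detrended within each array and not normalized between arrays, with 52044 spots per array. A second deposited table holds processed log2 values whose scale, centring and making are not stated, and it was used as an alternative only.

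Members, lists and comparisons were chosen with earlier results of these data known. For each miRNA the total probe signals of its own probes above 3 times their error were summed, and log2 ratios over sham were computed unscaled and after subtracting the median of the 182 miRNAs detected on all arrays. Errors were propagated from the scanner's. With 1 array per group there was no test, no p-value and no spread between animals. Precision was limited by the number of arrays. All 9 members were named, the likeness of profiles was ranked over the 5 arrays, and fixed lists of neighbours, families and cell type markers were counted. Ratios for 3p arms divided a signal by the lowest detected signal of the sham array, or by the miRNA's own signal there where higher. Alternatives were scaling (feature size, 4 spike-ins, 75th percentile, quantile), other summaries, normexp with an offset of 50, detection at 5 times the error, 1 probe per miRNA, each member left out, and other references. The work used limma 3.58.1 in R 4.3.3 for normexp, and pandas 2.3.3 with numpy 2.4.6 in Python 3.11.15 for the rest, with figures by matplotlib 3.10.9. The computation was tested on simulated data. Sequences and loci came from RefSeq tables with the GRCm38 build.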

Additional observations from a re-analysis of the deposited data

How the results depend on the processing

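The family sum relative to the median miRNA was below 0 at all 4 time points under every alternative run. Scaling by feature size, spike-ins or 75th percentile could not change this value. At 48 h it was −0.028 against miRNAs in the GC range of the members, within the scanner error of 0.07. Members were recounted under the alternatives of scaling, summary, background correction, detection and probes. At 12 h all 9 were below the median except with quantile normalization and in the authors' processed table, with 8 each. At 24 h all 9 were except with quantile normalization (6), normexp (7), the authors' table (7) and detection at 5 times the error (8). No paired analysis was possible because a group consisted of 1 array and no more. The cause of the changes below was not tested, except that feature size, spike-ins and the 75th percentile each multiply an array by 1 factor and so move all its miRNAs alike.

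The unscaled family sum moved at 12 and 24 h to −0.31 and 0.30 with 1 feature size, −0.30 and 0.31 with mean processed spot signals, and −0.28 and 0.30 with normexp. With the spike-ins it was −0.99 at 12 h, −0.42 at 24 h and −1.39 at 48 h. In the order 6, 12, 24 and 48 h it was −0.38, −0.57, −0.49 and −0.22 with the 75th percentile, −0.74, −0.99, −0.59 and −0.63 with quantile normalization, and −0.59, −0.96, −0.58 and −0.67 in the authors' table. Without let-7b-5p it was 0.78 at 24 h.

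Relative to the median miRNA, the sum was −0.40, −0.14 and −0.28 at 12, 24 and 48 h with normexp, −0.26 at 24 h with detection at 5 times the error or with the total gene signal, −0.47 and −0.61 at 6 and 48 h with quantile normalization, −0.32, −0.38 and −0.64 at 6, 12 and 48 h in the authors' table, and −0.25 at 24 h without let-7b-5p. With 2 references chosen after seeing the data it was, at 12, 24 and 48 h, −0.40, −0.20 and −0.028 against miRNAs in the GC range of the members and −0.59, −0.19 and −0.21 against miRNAs of like sham signal.

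The 24 h log2 ratio over sham was below 0 in 9 of 9 members with the spike-ins, the 75th percentile, quantile normalization and the authors' table. For let-7a-5p, let-7b-5p, let-7c-5p, let-7d-5p, let-7e-5p, let-7f-5p, let-7g-5p, let-7i-5p and miR-98-5p in this order it was −0.19, −0.70, −0.41, −0.34, −0.42, −0.16, −0.32, −0.30 and −0.31 with the spike-ins, −0.26, −0.77, −0.48, −0.41, −0.50, −0.23, −0.39, −0.37 and −0.38 with the 75th percentile, −0.55, −1.08, −0.52, −0.077, −0.37, −0.17, −0.28, −0.11 and −0.54 with quantile normalization, and −0.45, −1.05, −0.51, −0.20, −0.35, −0.32, −0.43, −0.15 and −0.54 in the authors' table. The number of members lower than the median by 1.5 fold or more, 0, 1, 1 and 0 at 6, 12, 24 and 48 h as reported, was 3, 4, 1 and 3 with quantile normalization, 1, 4, 1 and 3 in the authors' table, 2, 1, 0 and 1 with detection at 5 times the error, 2, 1, 0 and 0 with the total gene signal, 0, 1, 0 and 0 with normexp, and 0, 2, 1 and 0 with 1 probe per miRNA.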
